A study of Arabidopsis thaliana with 18 samples.

Results

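How far the double mutant gun1-101 rab8d-2 stood from the wild type Col-0 (WT) was examined gene by gene in Arabidopsis thaliana root tips, in 6 of the series' 18 RNA-seq libraries. The members were fixed by genotype: the 3 libraries of gun1-101 rab8d-2 against the 3 of WT. The 3 libraries of rab8d-2, and for the GUN1 allele alone the 3 of gun1-101, served as references that place each gene as returned or not returned to the WT level. The titles give seedlings 4 days old and the series design gives 3 days, and all were on half-strength Murashige and Skoog medium with sucrose in long days. Per the series text, rab8d-2 is deficient in plastid EF-Tu and the gun1-101 allele is a knockout of GUN1. All 4 genotypes were untreated, and the labels name no transgene.

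Plastid EF-Tu, encoded by the nuclear gene RABE1b (also RAB8D, AT4G20360), delivers aminoacyl-tRNAs to the ribosomes of the plastid and so is needed for making the proteins encoded in the plastid genome. GUN1 (AT2G31400) is a plastid pentatricopeptide repeat protein best known from plastid-to-nucleus signalling, in which the state of the plastid alters the expression of nuclear genes. Most cells of a root tip hold non-green plastids, whose tasks include making fatty acids, amino acids and hormone precursors. The question the comparison addresses is which of the nuclear expression changes of a root with little plastid EF-Tu are still there when GUN1 is mutated as well.

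Levels below are CPM, counts per 1000000 counts of a library whose size was scaled by TMM, a trimmed-mean scaling, in the order of replicates 1, 2 and 3. A gene was called at an adjusted p below 0.05 by edgeR's quasi-likelihood test with Benjamini-Hochberg adjustment over 21004 genes tested, which is meant wherever an adjusted p is given. Log2 fold changes are gun1-101 rab8d-2 minus WT unless another pair is named, and ± marks their standard error (SE). Beside a mean CPM, ± marks the SD with n = 3. Total counts were between 22625981 and 23090995 per library.

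The mutated genes were checked first. RABE1b stood at 109, 176 and 126 CPM in WT, at 18.9, 11.5 and 10.7 in rab8d-2 and at 8.55, 8.14 and 5.88 CPM in gun1-101 rab8d-2. All double-mutant libraries lay below all WT libraries, with a log2 fold change of -4.19 ± 0.35 (edgeR adjusted p = 7.53e-06), while the difference from rab8d-2 was not called (edgeR adjusted p = 0.134). GUN1 reads were at 133, 143 and 166 CPM in WT and at 58.04, 56.6 and 47.7 CPM in the double mutant, a log2 fold change of -1.44 ± 0.17 (edgeR adjusted p = 9.36e-05). A reduced but present GUN1 transcript does not say whether the protein was made.

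The libraries of a genotype were not evenly alike. Replicates 1 and 2 of gun1-101 rab8d-2 differed by a chi-square of 2.14 per gene, more than the 1 of sampling noise but far less than the 12.2 to 182 of every other replicate pair of the series, so they were kept as 2 libraries and the main counts are also given with them merged into 1. The morning clock genes CCA1 and LHY split the libraries by replicate: CCA1 was at 0.149, 0.377 and 77.0 CPM in WT, 0.207, 0.322 and 36.8 in rab8d-2 and 0.392, 0.391 and 9.62 CPM in gun1-101 rab8d-2. Replicate 3 was the high library of each of these 3 genotypes, whereas gun1-101 had a mean of 41.1 CPM. TOC1, an evening clock gene, ran the other way, with 110, 125 and 32.0 CPM in WT and 165, 162 and 74.5 CPM in the double mutant. None of the 11 clock genes tested was called in gun1-101 rab8d-2 against WT, and the part of the hour of harvest, which the labels do not give, in other genes was not tested. WT replicate 3 was also the WT library least like the others, with a chi-square of 149 and 158 per gene against 47.3 between WT replicates 1 and 2.

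The double mutant stood far from WT. Of the 21004 genes tested, 7670 (36.5%) were called, 3371 higher (16.0%) and 4299 lower (20.5%). At least 2-fold changes were called for 2183 higher (10.4%) and 2695 lower genes (12.8%), and at least 8-fold changes for 349 higher (1.66%) and 465 lower genes (2.21%). The 3 double-mutant and the 3 WT libraries did not overlap for 52.9% of the genes tested. In rab8d-2 against the same WT libraries 2585 genes (12.3%) were called, 4.80% higher and 7.50% lower, and in gun1-101 against WT 4 (0.0190%), all lower, where 1489 genes had an unadjusted p below 0.05. The median absolute log2 fold change over all genes was 0.61 in gun1-101 rab8d-2, 0.43 in rab8d-2 and 0.26 in gun1-101, each against WT. These 3 comparisons share the WT libraries, so their sizes are given side by side only.

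The split between higher and lower genes depended on the scale. On log2(TPM + 1) values, where TPM is the authors' length-scaled unit, the median gene of the double mutant was 0.29 above WT, and limma called 6271 genes higher and 2600 lower. Calls also followed transcript length. Of 5 bins of genes by summed exon length, the shortest had 10.0% higher and 23.0% lower, and the longest 26.3% higher and 11.1% lower. The median log2 fold change went from -0.22 in the shortest to 0.38 in the longest bin. Of genes with a mean above 100 CPM, 4.01% were higher and 30.4% lower. The part of length in the single results was not tested beyond a refit with the length trend removed, which called 8107 genes. When replicates 1 and 2 of the double mutant were merged, 4754 genes were called, and without WT replicate 2, 4193.

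**Figure D1:**
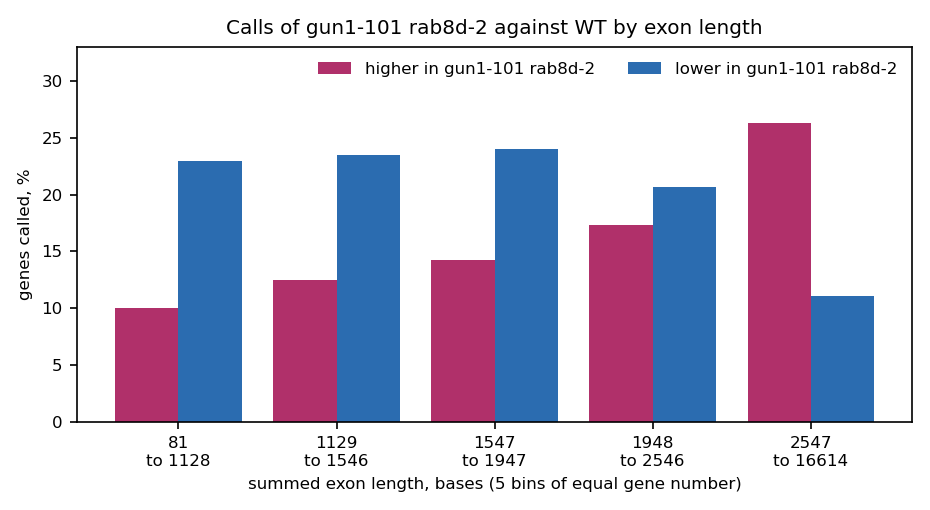
Percent of genes called higher or lower in gun1-101 rab8d-2 than in WT, in 5 bins of summed exon length in bases. The share called higher goes from 10.0% in the shortest to 26.3% in the longest bin, and the share called lower from 23.0% to 11.1%.

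Most genes of the rab8d-2 response had not returned to the WT level. Of the 2585 genes that differed between rab8d-2 and WT, 2117 (81.9%) were also called in the double mutant in the same direction, among them 744 of 1009 higher genes and 1373 of 1576 lower genes. A gene counted as returned only if it was called between gun1-101 rab8d-2 and rab8d-2 back towards WT, was not called against WT, and had a 95% interval against WT within a log2 fold change of -1 to 1. This held for 23 genes (0.89%), and 29 more met all but the width of the interval. A further 6 genes were called on the opposite side of WT, and 410 (15.9%) were undecided. Of the genes not returned, 16 were partly returned, that is, called against WT and also called back towards it from rab8d-2, and 15 of these were genes higher in rab8d-2. The classes use contrasts that share libraries, so the counts describe where genes stood and are not independent tests.

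The genes not returned are chosen by their call in the double mutant, so their sizes are given as a description. Their median log2 fold change against WT was 1.06 in rab8d-2 and 1.14 in gun1-101 rab8d-2 for the higher genes, and -1.45 and -1.82 for the lower genes. Within them, the 15 partly returned higher genes went from a median of 4.68 in rab8d-2 to 2.74 in the double mutant. A separate set of 725 genes lay beyond rab8d-2, called against both WT and rab8d-2 in the same direction, 433 higher (2.06%) and 292 lower (1.39%). Of these, 111 were called the same way in rab8d-2 against WT. Of the 7670 genes called in the double mutant, 5547 (72.3%) were not called in rab8d-2 against WT, which does not show that they differed between the mutants, since 878 genes (4.18%) were called between gun1-101 rab8d-2 and rab8d-2, 2.50% higher and 1.68% lower in the double mutant. The same merging left 1936 genes called in rab8d-2 against WT, of which 1438 were not returned and 5 returned, and 205 genes beyond. Without rab8d-2 replicate 2, the rab8d-2 response itself shrank to 450 genes, of which 409 were not returned and 6 returned. The 725 beyond became 285 without rab8d-2 replicate 1 and 304 without rab8d-2 replicate 3.

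**Figure D2:**
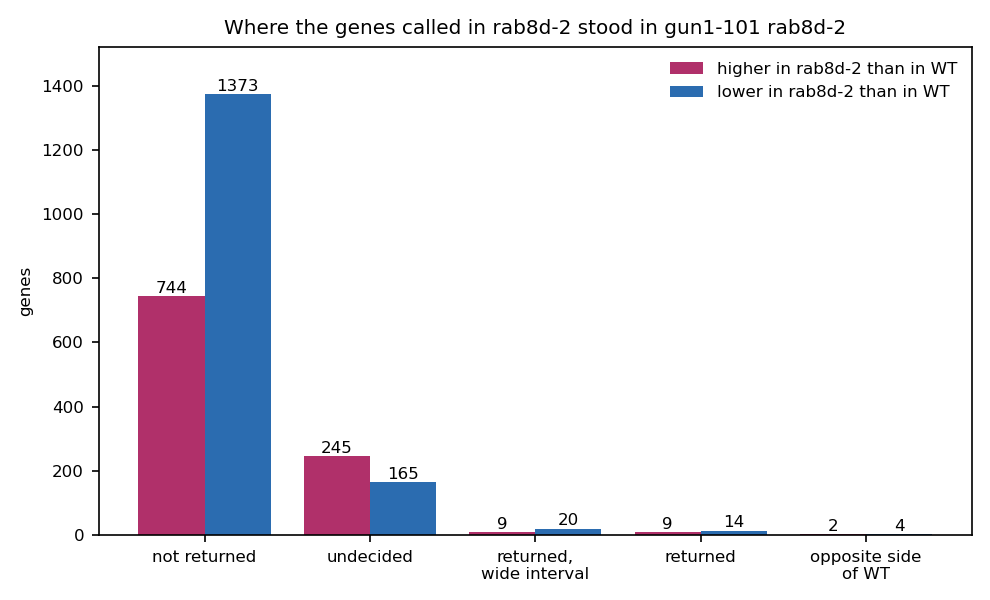
Number of genes in each class among the 2585 genes that differed between rab8d-2 and WT, split by their direction in rab8d-2. The bar of genes not returned holds 744 higher and 1373 lower genes, and the bar of returned genes 9 and 14.

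The genes furthest above WT had little or no expression there. DIR5 (AT1G64160), a dirigent protein gene, was at 0.199, 0.0539 and 0 CPM in WT, at 0.249, 0.161 and 0 in rab8d-2 and at 24.2, 26.3 and 34.4 CPM in gun1-101 rab8d-2. The double-mutant libraries lay above all others, with a log2 fold change of 8.34 ± 1.13 (edgeR adjusted p = 0.000334) and a difference from rab8d-2 of 7.64 ± 1.05 (edgeR adjusted p = 0.00229). GAD4, a glutamate decarboxylase that makes the metabolite GABA, was at 0.299, 0.323 and 0.0869 CPM in WT and 18.2, 19.5 and 27.1 CPM in the double mutant, and at 1.01 CPM or less in rab8d-2. Its log2 fold change was 6.52 ± 1.00, and it was also called against rab8d-2 (5.20 ± 0.90, edgeR adjusted p = 0.00637). PRX52, a peroxidase that acts in lignin formation, was at 1.79, 0.754 and 0.565 CPM in WT, 1.70, 0.683 and 0.648 in rab8d-2 and 30.3, 32.4 and 27.6 CPM in gun1-101 rab8d-2. WT and rab8d-2 overlapped, and the double mutant was called against both, by 4.86 ± 0.64 and 4.89 ± 0.63. The WRKY factor gene ABO3 rose from 0.26 ± 0.05 CPM in WT to 5.06 ± 0.15 CPM, against 0.15 ± 0.02 CPM in rab8d-2.

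Of 5 other genes at the top, WRKY28 and GSTU12 were also called higher in rab8d-2 against WT, and TAT3, BHLH92 and BGLU28 were not (edgeR adjusted p = 0.0834, 0.0808 and 0.0905). The transcription factor gene WRKY28 was at 0.16 ± 0.05 CPM in WT, 5.81 ± 0.20 in rab8d-2 and 17.3 ± 1.43 CPM in the double mutant (6.69 ± 0.63), and its difference from rab8d-2 was not called (edgeR adjusted p = 0.0651). The glutathione transferase gene GSTU12, at 0.26 ± 0.12 CPM in WT, was at 26.6, 25.9 and 18.4 CPM in the double mutant and between 0.446 and 4.14 CPM in rab8d-2. TAT3, a tyrosine aminotransferase gene, was at 74.1 and 72.7 CPM in double-mutant replicates 1 and 2 but at 9.96 CPM in replicate 3, still above the WT maximum of 1.17 CPM. BHLH92, a stress-responsive transcription factor gene, had the same shape with 18.3, 17.6 and 5.47 CPM. BGLU28, a beta-glucosidase gene, was at 8.47, 8.76 and 13.7 CPM, and at 0.261 CPM or less in WT.

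The genes furthest below WT included genes with steady and with uneven WT levels. MRD1 (AT1G53480) was at 84.6, 67.8 and 40.6 CPM in WT, 0.249, 0.201 and 0.729 in rab8d-2 and 0.0392, 0.0782 and 0 CPM in the double mutant. With 3 counts in the double mutant, the ratio of WT to gun1-101 rab8d-2 was 1632 with a 95% counting interval of 558 to 7918. The gun1-101 libraries were also low for MRD1, at 0.525, 1.84 and 0.132 CPM. FRO5, of the ferric reductase oxidase family, fell from 7.02, 45.2 and 88.8 CPM in WT to 0.588, 0.509 and 0.302 CPM in the double mutant, and rab8d-2 was at 2.07 CPM or less. BGLU35, a beta-glucosidase gene, was at 2.14, 119 and 86.7 CPM in WT, 30.4, 1.89 and 26.7 in rab8d-2 and 0.510, 0.548 and 0.339 CPM in the double mutant, and its fall was also called against rab8d-2 (-5.38 ± 1.42, edgeR adjusted p = 0.0463). The expansin gene EXPA2 had 10.2, 5.39 and 1.39 CPM in WT and a total of 3 counts in the double mutant.

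The rest of the lowest genes belong to seeds. The seed storage and oil body list (5 genes, 4 lower) followed single libraries. Its summed level was 54.6, 422 and 10.0 CPM in WT, 318, 12.3 and 2.9 in rab8d-2 and 2.2, 2.7 and 1.2 CPM in gun1-101 rab8d-2. CRU3, a cruciferin storage protein gene, was at 1.79, 164 and 0.0435 CPM in WT and had no count in the double mutant, so it was at least 1294-fold lower (edgeR adjusted p = 0.0462), with the floor of 3 counts taken over the group. Without WT replicate 2, none of the 5 was called, and with double-mutant replicates 1 and 2 merged, 1 was. M17, a late embryogenesis abundant gene, was at 4.83, 49.5 and 1.48 CPM in WT and 0.235, 0.391 and 0.0754 CPM in the double mutant.

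Of the 6 returned genes with a symbol and the largest rab8d-2 effects, 5 had been lowered in rab8d-2. GGH1 (AT1G78660), a gamma-glutamyl hydrolase that trims folate side chains, was at 255, 260 and 253 CPM in WT, 132, 106 and 148 in rab8d-2 and 278, 278 and 190 CPM in gun1-101 rab8d-2. The double mutant spanned the WT values, its log2 fold change was -0.04 with a 95% interval of -0.48 to 0.41, and it was called above rab8d-2 by 0.95 ± 0.21 (edgeR adjusted p = 0.0221). ARIA, an arm-repeat protein gene of abscisic acid response, was at 93.3, 90.5 and 105 CPM in WT, 40.4, 47.4 and 60.6 in rab8d-2 and 118, 114 and 112 CPM in the double mutant. The 3 double-mutant libraries lay above the 3 of WT, but by 0.26 with an interval of -0.14 to 0.65, and the difference was not called.

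GSTU26, a glutathione transferase gene, was at 96.0, 137 and 91.9 CPM in WT, 34.8, 34.3 and 44.8 in rab8d-2, and 133, 137 and 47.8 CPM in the double mutant. Here replicate 3 of the double mutant stood near rab8d-2 and only replicates 1 and 2 stood within the WT range. The purple acid phosphatase gene PAP7 had the same pattern, with 26.4, 29.2 and 16.3 CPM in the double mutant against means of 28.1 ± 9.01 CPM in WT, above the 10.3 ± 3.11 CPM of rab8d-2. The serine carboxypeptidase-like gene scpl3 was at 10.5 ± 1.49 CPM in WT, 5.57 ± 2.01 in rab8d-2 and 11.5 ± 0.38 CPM in the double mutant. CRF2, a cytokinin response factor, went the other way, at 28.8 ± 2.38 CPM in WT, 55.6 ± 12.6 in rab8d-2 and 36.6 ± 2.55 CPM in the double mutant, where all 3 libraries were still above WT and the interval was 0.01 to 0.69. NDB1, an external NAD(P)H dehydrogenase of mitochondria, was at 15.1, 16.6 and 18.1 CPM in WT, 21.1, 24.6 and 26.2 in rab8d-2 and 16.3, 17.7 and 15.9 CPM in the double mutant. With double-mutant replicates 1 and 2 merged, or without replicate 2, 5 genes were returned and 0 of them were higher in rab8d-2. CRF2 and NDB1 thus left the class, and which genes lowered in rab8d-2 stayed in it was not followed by name.

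Partial return was the pattern of ACC2 (AT1G36180), the plastid-directed single-chain acetyl-CoA carboxylase, which can carry out the first step of fatty acid synthesis beside the multi-subunit enzyme. The multi-subunit enzyme has a subunit encoded in the plastid genome. ACC2 was at 2.99, 3.39 and 7.09 CPM in WT, 80.2, 138 and 130 in rab8d-2 and 45.3, 40.5 and 54.5 CPM in gun1-101 rab8d-2. The 3 genotypes did not overlap. The double mutant was above WT by 3.37 ± 0.37 (edgeR adjusted p = 5.32e-05) and below rab8d-2 by a log2 difference of -1.31 ± 0.34 (edgeR adjusted p = 0.0413). Whether the call against rab8d-2, on which the partial return rests, holds in the alternative settings was not tested. ACC1, the cytosolic copy with near-identical sequence, was at 150, 120 and 233 CPM in WT and 131, 125 and 115 CPM in the double mutant and was not called, and reads shared between ACC1 and ACC2 may have been split between them by the authors' counting. Of the nuclear subunits of the multi-subunit enzyme, BCCP2 fell from 195, 194 and 137 CPM to 110, 105 and 91.8 CPM and CAC1 from 127, 130 and 97.7 CPM to 91.5, 81.7 and 64.2 CPM, both without overlap. CAC2 (-0.37 ± 0.16) and CAC3 (0.39 ± 0.32) were not called. The transporter gene ABCA10 was also partly returned, at 0.10 ± 0.09 CPM in WT, 7.08 ± 1.74 in rab8d-2 and 2.30 ± 0.67 CPM in the double mutant.

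The 6 genes on the opposite side of WT were named after their values were seen. SRO1, related to the stress regulator RCD1, was at 39.9, 37.2 and 40.6 CPM in WT, 20.16, 24.6 and 25.0 in rab8d-2 and 59.6, 61.0 and 50.9 CPM in the double mutant, with no overlap among the 3 genotypes. It was above WT by 0.54 ± 0.13 and above rab8d-2 by 1.297 ± 0.13. The amino acid permease gene AAP7, the aspartate kinase gene CARAB-AK-LYS and the homeobox gene WOX12 had the same order, and AT3G47030 and AT1G67750 the reverse. Of 20 alternative settings, 11 ended the call of AAP7 against WT, 7 that of CARAB-AK-LYS and 5 that of AT3G47030. For AT1G67750 it was 2, for SRO1 1 and for WOX12 0. WOX12 was at 2.72 ± 0.19 CPM in WT, 1.52 ± 0.49 in rab8d-2 and 5.86 ± 1.302 CPM in the double mutant.

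**Figure D3:**
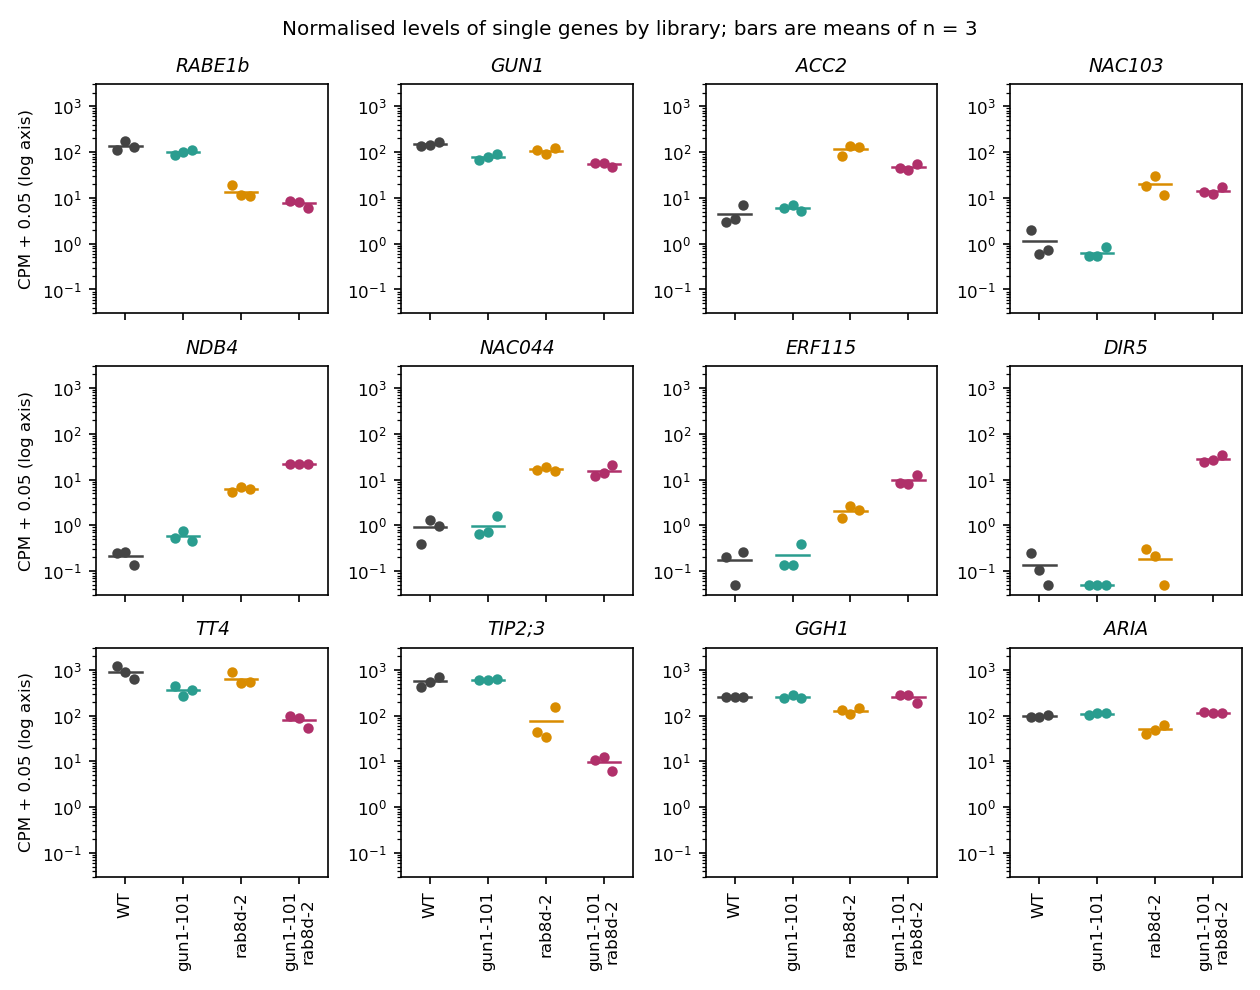
CPM plus 0.05 on a log axis for 12 genes in the libraries of WT, gun1-101, rab8d-2 and gun1-101 rab8d-2, with points for libraries and bars for means of n = 3. DIR5 is high in the double mutant alone among these genotypes, ACC2 lies between WT and rab8d-2, and GGH1 and ARIA are near their WT levels.

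Among lists of genes by function, nuclear genes for plastid translation were lower as a group. Of 28 tested, 20 were called lower and none higher, beside 20.5% and 16.0% of all genes, and their median log2 fold change was -0.83 against -0.02 over all genes. In rab8d-2 against WT, 1 of the 28 was called, RABE1b itself, and 2 were called lower in gun1-101 rab8d-2 than in rab8d-2. In gun1-101 against WT 0 were called, but the list median was -0.43, beside -0.22 in rab8d-2. The list summed to 1153, 1192 and 1298 CPM in WT and 862, 902 and 999 in gun1-101. In rab8d-2 it was at 1235, 839 and 707 CPM, and in the double mutant at 580, 594 and 707 CPM. RPL4, a protein of the large plastid ribosomal subunit, was at 57.4, 51.5 and 48.2 CPM in WT and 15.8, 15.1 and 18.3 CPM in the double mutant, well apart (-1.68 ± 0.27, edgeR adjusted p = 0.000557), and also below rab8d-2 (edgeR adjusted p = 0.0234). EMB3113, annotated among the plastid ribosomal proteins, fell from 51.0 ± 4.70 CPM to 23.1 ± 3.84 CPM. SCO1, the plastid elongation factor G, fell by 1.32 on the log2 scale. Merging replicates 1 and 2 of the double mutant left 12 called lower, and TPM values gave 10.

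Of 18 genes for plastid transcription and import 2 were higher and 2 lower, below the shares over all genes. The counts were 4 higher and 0 lower on TPM values, 5 and 2 without WT replicate 3, and 1 and 0 with double-mutant replicates 1 and 2 merged. AT5G15700 and SCA3, both organelle RNA polymerases of the phage type, rose from 7.44 ± 2.33 to 19.8 ± 2.24 CPM and from 8.80 ± 5.80 to 22.8 ± 2.81 CPM. TOC75-III, the channel of the outer envelope, fell from 83.9 ± 6.67 to 60.5 ± 7.03 CPM. Of 20 alternative settings, 5 ended the call of SCA3, 8 that of TOC75-III and 0 that of AT5G15700. Of 26 plastid chaperones and proteases 8 were lower and 2 higher, beside 20.5% and 16.0% of all genes. This split rested on single libraries, with 6 lower and 8 higher without WT replicate 3, and 4 lower and 0 higher without WT replicate 2 or with double-mutant replicates 1 and 2 merged. The thylakoid FtsH protease genes were among the lower ones, with FTSH1 at 26.9, 45.8 and 34.6 CPM in WT and 8.90, 8.80 and 8.75 CPM in the double mutant, VAR1 at -1.41 ± 0.24 and VAR2 at -1.18 ± 0.20. The small plastid heat shock gene HSP21 was higher, at 3.49, 2.74 and 2.30 CPM against 0.739 CPM or less in WT.

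Tetrapyrrole synthesis and GUN signalling genes, which include the path to chlorophyll and heme, had 17 of 32 called lower and 2 higher. The shares over all genes were 20.5% and 16.0%, and the median log2 fold change of the list was -0.89. In rab8d-2 against WT, 4 were called, all lower, and none of these had returned. TED4, a heme oxygenase, was at 68.2, 123 and 110 CPM in WT and 27.9, 27.0 and 38.6 CPM in the double mutant (-1.69 ± 0.24). G4, the chlorophyll synthase, fell from 16.6 ± 2.40 to 3.69 ± 0.27 CPM, and GUN5, a subunit of magnesium chelatase, from 19.2, 31.7 and 55.1 CPM to 6.98, 6.42 and 14.1 CPM. The 2 higher genes were HEMD, at 4.38, 3.82 and 8.00 CPM in WT and 13.6, 13.7 and 12.7 CPM in the double mutant, and HEMA2, a glutamyl-tRNA reductase, at 1.33 ± 0.45. Photosynthesis genes had 12 of 36 lower and none higher, and their median of -1.93 was low while WT was spread: the list summed to 857, 1565 and 2593 CPM in WT, 1930.5, 262 and 535 in rab8d-2 and 264, 274 and 676 CPM in the double mutant. After that merging, 3 photosynthesis and 9 tetrapyrrole genes were called lower. PSBO2, of the oxygen-evolving complex, fell without overlap from 50.3 ± 19.8 to 5.86 ± 3.03 CPM.

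Genes of mitochondrial dysfunction and alternative respiration rose as a list, and further than in rab8d-2 for several members. Alternative oxidases and type II NAD(P)H dehydrogenases let electrons bypass the proton-pumping complexes of the respiratory chain. Of 21 tested, 12 were called higher and none lower, with a median of 1.31. In rab8d-2 against WT 9 were called higher. Between gun1-101 rab8d-2 and rab8d-2, 5 were called higher and 1, NDB1, lower.

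Promoters are shown for the members that carry the motif CTTG, any 5 bases, CAAG, the core of the element known as the mitochondrial dysfunction motif in Arabidopsis, and for NAC044 of the DNA damage list. Each sequence is the 300 bases before the annotated gene start on the coding strand, from RefSeq's TAIR10.1, read 5′ to 3′, with the motif in capitals. NDA1 is at chr1:2203804-2204103 (+), NDB2 at chr4:2572127-2572426 (+), AT2G21640 at chr2:9254078-9254377 (+), CYP81D8 at chr4:17571744-17572043 (-) and NAC044 at chr3:228775-229074 (+).
NDA1: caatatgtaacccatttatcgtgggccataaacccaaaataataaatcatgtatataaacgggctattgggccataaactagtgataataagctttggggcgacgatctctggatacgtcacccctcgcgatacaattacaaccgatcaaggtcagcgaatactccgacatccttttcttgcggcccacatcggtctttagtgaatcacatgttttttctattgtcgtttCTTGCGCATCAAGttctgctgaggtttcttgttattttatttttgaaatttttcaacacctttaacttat
NDB2: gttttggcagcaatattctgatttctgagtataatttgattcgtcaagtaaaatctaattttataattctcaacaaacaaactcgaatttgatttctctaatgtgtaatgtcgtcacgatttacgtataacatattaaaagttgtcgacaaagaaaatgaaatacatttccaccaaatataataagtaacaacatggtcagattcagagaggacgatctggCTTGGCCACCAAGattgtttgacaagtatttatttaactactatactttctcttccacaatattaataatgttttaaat
AT2G21640: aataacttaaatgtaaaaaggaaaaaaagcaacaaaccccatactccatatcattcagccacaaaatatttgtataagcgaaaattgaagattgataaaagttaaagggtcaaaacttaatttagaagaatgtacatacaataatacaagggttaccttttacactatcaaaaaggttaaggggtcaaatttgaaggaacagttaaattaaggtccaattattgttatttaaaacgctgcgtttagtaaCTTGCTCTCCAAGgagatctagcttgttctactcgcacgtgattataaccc
CYP81D8: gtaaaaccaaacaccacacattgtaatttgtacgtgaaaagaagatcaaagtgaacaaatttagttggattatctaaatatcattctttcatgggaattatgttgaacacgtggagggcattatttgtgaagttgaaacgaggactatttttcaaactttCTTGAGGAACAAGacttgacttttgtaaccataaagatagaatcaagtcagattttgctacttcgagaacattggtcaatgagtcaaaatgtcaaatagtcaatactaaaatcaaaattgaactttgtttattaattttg
NAC044: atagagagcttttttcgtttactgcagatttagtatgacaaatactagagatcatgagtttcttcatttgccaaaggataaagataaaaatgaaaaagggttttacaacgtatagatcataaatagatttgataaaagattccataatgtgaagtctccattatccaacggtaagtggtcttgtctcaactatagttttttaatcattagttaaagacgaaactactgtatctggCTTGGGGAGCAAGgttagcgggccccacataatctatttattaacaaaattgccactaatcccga
The motif is its own reverse complement, so a match holds for both strands, and every match is also a match of the looser motif CTT, any 7 bases, AAG. The 13-base motif was found in 154 of 21003 such windows (0.733%), in 44 of 3371 genes higher in the double mutant (1.31%), in 32 of 4298 lower genes (0.745%) and in 11 of the 433 genes higher beyond rab8d-2 (2.54%). It was in 4 of 21 windows of the mitochondrial list and in 1 of 32 of the DNA damage list. Of the 5 genes shown, NDB2 was not called. A match is a run of letters and not a bound site.

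NDB4, an external NAD(P)H dehydrogenase, stood at similar values within each genotype: 0.199, 0.215 and 0.0869 CPM in WT, 5.19, 6.995 and 6.12 in rab8d-2 and 22.4, 21.8 and 22.4 CPM in the double mutant. No library of the 3 genotypes overlapped another genotype, and the double mutant was called against WT (7.04 ± 0.37, edgeR adjusted p = 1.52e-07) and against rab8d-2 (1.86 ± 0.27, edgeR adjusted p = 0.00209). AT2G21640, annotated as a marker of oxidative stress response, was at 0.995, 0.916 and 2.56 CPM in WT, 14.8, 12.8 and 12.8 in rab8d-2 and 48.5, 43.0 and 54.5 CPM in gun1-101 rab8d-2 (5.01 ± 0.34). AT5G09570, annotated as Cox19-like, was at 0.348, 0.269 and 0.0869 CPM in WT, 0.830, 1.25 and 0.729 in rab8d-2 and 34.2, 37.6 and 32.1 CPM in the double mutant, 7.20 ± 0.56 above WT and 5.20 ± 0.49 above rab8d-2.

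The members with the motif that rose differed in size. CYP81D8, a cytochrome P450 gene, was at 4.48, 8.02 and 2.91 CPM in WT and 43.1, 44.2 and 26.7 CPM in the double mutant (2.89 ± 0.45), and its difference from rab8d-2 was not called. NDA1, an internal NAD(P)H dehydrogenase, was at 0.249, 0.754 and 1.00 CPM in WT, 1.78, 1.53 and 3.60 in rab8d-2 and 2.27, 2.15 and 2.11 CPM in the double mutant. The alternative oxidase gene AOX1D was at 2.27, 2.03 and 1.62 CPM in the double mutant against at most 0.348 CPM in WT, and at most 0.124 CPM among rab8d-2 libraries. AOX1A, the main stress-induced alternative oxidase of leaves, was at 55.9, 92.7 and 51.0 CPM in WT and 113, 112 and 89.4 CPM in the double mutant, overlapping, and was not called (edgeR adjusted p = 0.117).

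DNA damage response genes were higher and had not returned. Of 32 tested 18 were called higher and none lower, with a median of 1.03. In rab8d-2 against WT 12 were higher, and 11 of these were among the genes not returned. NAC044, which acts with NAC085 to stop the cell cycle after DNA damage, was at 0.348, 1.29 and 0.913 CPM in WT, 16.3, 18.4 and 15.6 in rab8d-2 and 12.2, 14.0 and 20.8 CPM in the double mutant. It was above WT by 4.20 ± 0.46 (edgeR adjusted p = 5.47e-05) and, at a log2 difference of -0.10 ± 0.39, was not called between the mutants. GMI1, a repair gene induced by double-strand breaks, was at 3.53, 1.67 and 3.22 CPM in WT, 22.6, 27.7 and 27.0 in rab8d-2 and 18.1, 18.5 and 19.4 CPM in the double mutant. BRCA1, of homologous recombination, rose by 2.09 ± 0.52 and the checkpoint gene ATRAD17 by 2.28 ± 0.31.

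NAC085 had 3 counts in WT and 152 in the double mutant, a ratio of 40.3 with a 95% counting interval of 13.5 to 198. SOG1, the transcription factor at the head of the response, was not called (-0.32). SMR5, a CDK inhibitor that SOG1 induces, had counts in WT replicate 3 alone, at 14.0 CPM, and none in the double mutant, and was not called. The list had 11 higher with double-mutant replicates 1 and 2 merged, and 11 without WT replicate 2. The looser motif CTT, any 7 bases, AAG, which is the SOG1 binding motif, was in 10 of its 32 promoter windows (31.2%) and in 2303 of 21003 windows of all genes tested (11.0%).

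S phase and mitotic genes were called higher or not called, beside 16.0% higher and 20.5% lower over all genes. CDK inhibitors were called in both directions, with 3 of 15 lower (20%), near the share of all genes, and 1 higher (6.67%), below it. Of 19 S phase genes 5 were higher, among them RNR2A, a ribonucleotide reductase subunit, at 16.3, 14.4 and 13.7 CPM in WT and 24.3, 24.7 and 28.4 CPM in the double mutant (0.80 ± 0.13), and the replication helicase gene MCM6, at 3.38, 2.69 and 12.2 CPM against 20.5, 20.6 and 19.8 CPM. The replication clamp genes PCNA1 and PCNA2 were at -0.11 and 0.04 and not called. Of 28 G2 and M phase genes 10 were higher and none lower, with CDC20.1, an activator of the anaphase-promoting complex, at 33.9 ± 6.32 CPM in WT and 74.5 ± 1.84 CPM in the double mutant. Merging replicates 1 and 2 left 1 of the 19 S phase genes and 3 of the 28 G2 and M genes called higher. Of the 21004 genes tested, 1884 were called higher after that merging. The S phase share was then below that of all genes, and the G2 and M share was near it. The kinesin gene HIK was at 2.11 ± 0.59. Among 15 CDK inhibitors, SIM, which promotes endoreduplication, fell from 119, 132 and 94.6 CPM to 33.6, 33.7 and 35.4 CPM and was also below rab8d-2 (-1.02 ± 0.22, edgeR adjusted p = 0.021), KRP2 and LGO fell and KRP6 rose from 7.79 ± 2.97 to 29.0 ± 4.35 CPM. On TPM values that list had 3 higher and 1 lower.

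Root meristem regulators had 11 higher (45.8%) and 3 lower (12.5%) of 24, beside 16.0% and 20.5% of all genes. ERF115, a transcription factor gene of stem cell replacement after damage, was at 0.149, 0 and 0.217 CPM in WT, 1.41, 2.65 and 2.11 in rab8d-2 and 8.31, 8.06 and 12.3 CPM in the double mutant, with no overlap among the 3. It was above WT by 6.17 ± 0.67 and above rab8d-2 by 2.21 ± 0.51 (edgeR adjusted p = 0.0268). PSK5, a phytosulfokine precursor gene, was at 9.16, 6.62 and 4.39 CPM in WT, 7.63, 4.42 and 9.72 in rab8d-2 and 33.4, 36.5 and 29.1 CPM in the double mutant. WOX5, the homeobox gene of the quiescent centre, rose from 5.87, 3.12 and 3.52 CPM in WT to 14.3, 14.1 and 16.3 CPM, and rab8d-2 was at 5.14, 6.35 and 4.66 CPM. The PLETHORA-family genes AIL6, PLT1, PLT2 and BBM rose, AIL6 from 27.7 ± 6.93 to 150 ± 10.2 CPM. SHR, SCR and BHLH32 were lower. On TPM values 0 of the list were lower, and 1 was without WT replicate 1, WT replicate 2 or any 1 double-mutant replicate. In bulk samples fewer cells of a type and less RNA per cell cannot be told apart.

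Markers of xylem, root hairs and endodermis were mostly lower. Their summed levels did not overlap between the 2 genotypes: xylem markers summed to 533, 1105 and 855 CPM in WT and 143, 145 and 87.7 CPM in the double mutant, root hair markers to 504, 1927 and 714 CPM and 126, 125 and 74.4 CPM, and endodermis and Casparian strip markers to 1070, 1582 and 884 CPM and 396, 398 and 250 CPM. The share of these cells in a library was not measured, and its part in the other results was not tested.

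Of 16 xylem markers 15 were called lower, with a median of -2.41, 11 of which were genes of rab8d-2 that had not returned. CESA4, a cellulose synthase of secondary walls, was at 45.1, 47.3 and 66.0 CPM in WT, 20.6, 11.9 and 18.6 in rab8d-2 and 13.8, 12.5 and 7.73 CPM in the double mutant. The vessel death genes MC9 and RNS3 fell by 6.25 and 5.85 on the log2 scale, and WT replicate 1, at 4.08 CPM for MC9 against 98.8 and 45.3 CPM, was the low WT library. Of 15 root hair markers 12 were lower, with a median of -3.55. PRP3, a wall protein of hairs, was at 136, 607 and 163 CPM in WT, 55.9, 21.3 and 32.4 in rab8d-2 and 14.4, 15.3 and 8.41 CPM in the double mutant. RHD6, at the top of the hair regulators, was not called (0.24 ± 0.30), while RSL2, which acts after it, fell from 7.21 ± 3.83 to 0.86 ± 0.14 CPM.

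Of 10 endodermis markers 9 were lower, CASP5 among them at 72.6, 85.2 and 81.0 CPM in WT, 24.1, 12.2 and 33.6 in rab8d-2 and 14.9, 14.0 and 6.52 CPM in the double mutant. MYB36, the transcription factor that switches on Casparian strip genes, went the other way, at 16.1, 11.0 and 16.9 CPM in WT and 28.7, 30.7 and 28.6 CPM in the double mutant (1.00 ± 0.26). Of 12 phloem markers 3 were lower and 2 higher, close to the 20.5% and 16.0% of all genes. The companion cell sucrose transporter gene SUC2 fell from 94.7, 91.8 and 60.7 CPM to 24.6, 23.51 and 6.90 CPM, beside 27.4, 7.08 and 15.2 CPM in rab8d-2, and BRX and NAC045, which act early in phloem, were the 2 called higher. No phloem marker was called higher without WT replicate 1, WT replicate 2, or double-mutant replicate 1 or 2, nor with the latter pair merged. Root cap markers had 4 lower and 1 higher of 6, and of 4 non-hair epidermis markers GL2 alone was called, at 17.0 ± 2.88 CPM in WT and 7.87 ± 1.33 CPM in the double mutant.

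All 6 tonoplast water channel genes, whose products move water into the vacuole, were lower, in every setting tried. The list summed to 9122, 12713 and 7829 CPM in WT, 2977, 1351 and 3691 in rab8d-2 and 957, 956 and 671 CPM in gun1-101 rab8d-2. TIP2;3 was at 425, 553 and 697 CPM in WT, 43.0, 33.1 and 152 in rab8d-2 and 10.6, 12.6 and 6.18 CPM in the double mutant, without overlap, and was called against WT (-5.83 ± 0.61, edgeR adjusted p = 4.09e-05) and rab8d-2 (-2.96 ± 0.54, edgeR adjusted p = 0.00832). TIP2;2 and GAMMA-TIP were called in both comparisons too.

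Flavonoid synthesis genes were lower in the double mutant than in both WT and rab8d-2. Of 9 genes tested 8 were called lower than in WT, none was called in rab8d-2 against WT, and 7 were called lower than in rab8d-2. TT4, the chalcone synthase that opens the pathway, was at 1218, 895 and 622 CPM in WT, 890, 508 and 527 in rab8d-2 and 96.5, 87.1 and 53.2 CPM in the double mutant. The double-mutant libraries lay far below both, by -3.53 ± 0.40 against WT (edgeR adjusted p = 7.32e-05) and -3.02 ± 0.39 against rab8d-2 (edgeR adjusted p = 0.00127). TT5, the chalcone isomerase, was at 48.8, 47.9 and 44.8 CPM in WT, 49.98, 20.02 and 23.9 in rab8d-2 and 4.20, 4.93 and 4.86 CPM in the double mutant. F3H, the next enzyme, was at 143 ± 13.6, 126 ± 15.5 and 25.2 ± 6.47 CPM in the same order. In gun1-101 the list's median log2 fold change against WT was -0.93 and none was called, with TT4 at 359 CPM. MYB12, a regulator of these genes, was not called (-0.36 ± 0.46).

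Oxidative stress and glutathione transferase genes had 9 higher (29%) and 2 lower (6.45%) of 31, beside 16.0% and 20.5% of all genes. None of the 31 was called in rab8d-2 against WT. GSTU1 was at 40.0, 45.9 and 45.5 CPM in WT, 46.6, 31.4 and 48.8 in rab8d-2 and 120, 125 and 114 CPM in the double mutant, above WT by 1.45 ± 0.19 and rab8d-2 by 1.502 ± 0.19. GSTU4 rose from 2.81 ± 2.03 to 29.3 ± 2.16 CPM. CAT2, a catalase gene, fell from 332, 516 and 435 CPM to 158, 161 and 149 CPM. Merging left 4 higher. Of 20 genes of the unfolded protein response 3 were higher, near the 16.0% of all genes, and 1 lower. NAC103, a transcription factor of this response, was at 1.99, 0.539 and 0.695 CPM in WT, 17.7, 29.7 and 11.4 in rab8d-2 and 13.6, 12.0 and 17.7 CPM in the double mutant, above WT by 3.74 ± 0.51 and not called against rab8d-2 (edgeR adjusted p = 0.595). BIP3, an inducible chaperone of the endoplasmic reticulum, was at 0.0995 CPM or less in WT, 0.121 CPM or less in rab8d-2 and 1.61, 1.41 and 3.73 CPM in the double mutant. The list's other BiP genes, BIP1 (0.35) and BIP2 (0.47), were not called, and 8 of the list were higher on TPM values and without WT replicate 3.

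Hormone lists were mixed, beside 20.5% lower and 16.0% higher over all genes. Of 18 auxin genes 6 were lower and 3 higher, the higher share being near that of all genes, with GH3.3, which conjugates auxin to amino acids, at 8.81, 4.90 and 7.30 CPM in WT, 25.3, 16.4 and 12.6 in rab8d-2 and 72.6, 76.1 and 44.9 CPM in the double mutant, and LBD18, a lateral root regulator, down from 7.93 ± 1.90 to 2.61 ± 0.40 CPM. Of 18 cytokinin genes 4 were lower, near the share of all genes, and 1 higher, among them IPT5, of cytokinin synthesis, from 23.4 ± 5.33 to 6.59 ± 1.93 CPM, a split of 2 lower and 3 higher on TPM values. Of 16 abscisic acid genes 5 were lower and 4 higher. LTI78 rose from 13.6, 14.6 and 36.04 CPM to 151, 152 and 89.7 CPM, and the related LTI65 fell from 9.56, 6.03 and 18.1 CPM to 1.69, 1.29 and 1.51 CPM. The abscisic acid list had 1 lower once replicates 1 and 2 were merged.

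Nutrient genes were lower where called. Of 17 iron deficiency genes 7 were lower and none higher, and of 12 phosphate starvation genes 7 and none, beside 20.5% lower and 16.0% higher over all genes. FRU, also FIT, the root regulator of iron uptake, was at 23.1, 35.7 and 35.8 CPM in WT, 18.6, 7.08 and 12.6 in rab8d-2 and 10.5, 11.1 and 16.7 CPM in the double mutant. IRT1, the iron transporter, had 3 counts in the double mutant, and WT replicate 1 was as low at 0.0498 CPM. MGD2, which makes the galactolipids that replace phospholipids under low phosphate, was at 3.78, 6.84 and 4.96 CPM in WT, 2.36, 2.21 and 3.12 in rab8d-2 and 1.37, 1.25 and 1.24 CPM in the double mutant, called against both. Merging replicates 1 and 2 left 3 iron and 5 phosphate genes lower, and on TPM values 2 iron genes were higher and 5 lower.

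**Figure D4:**
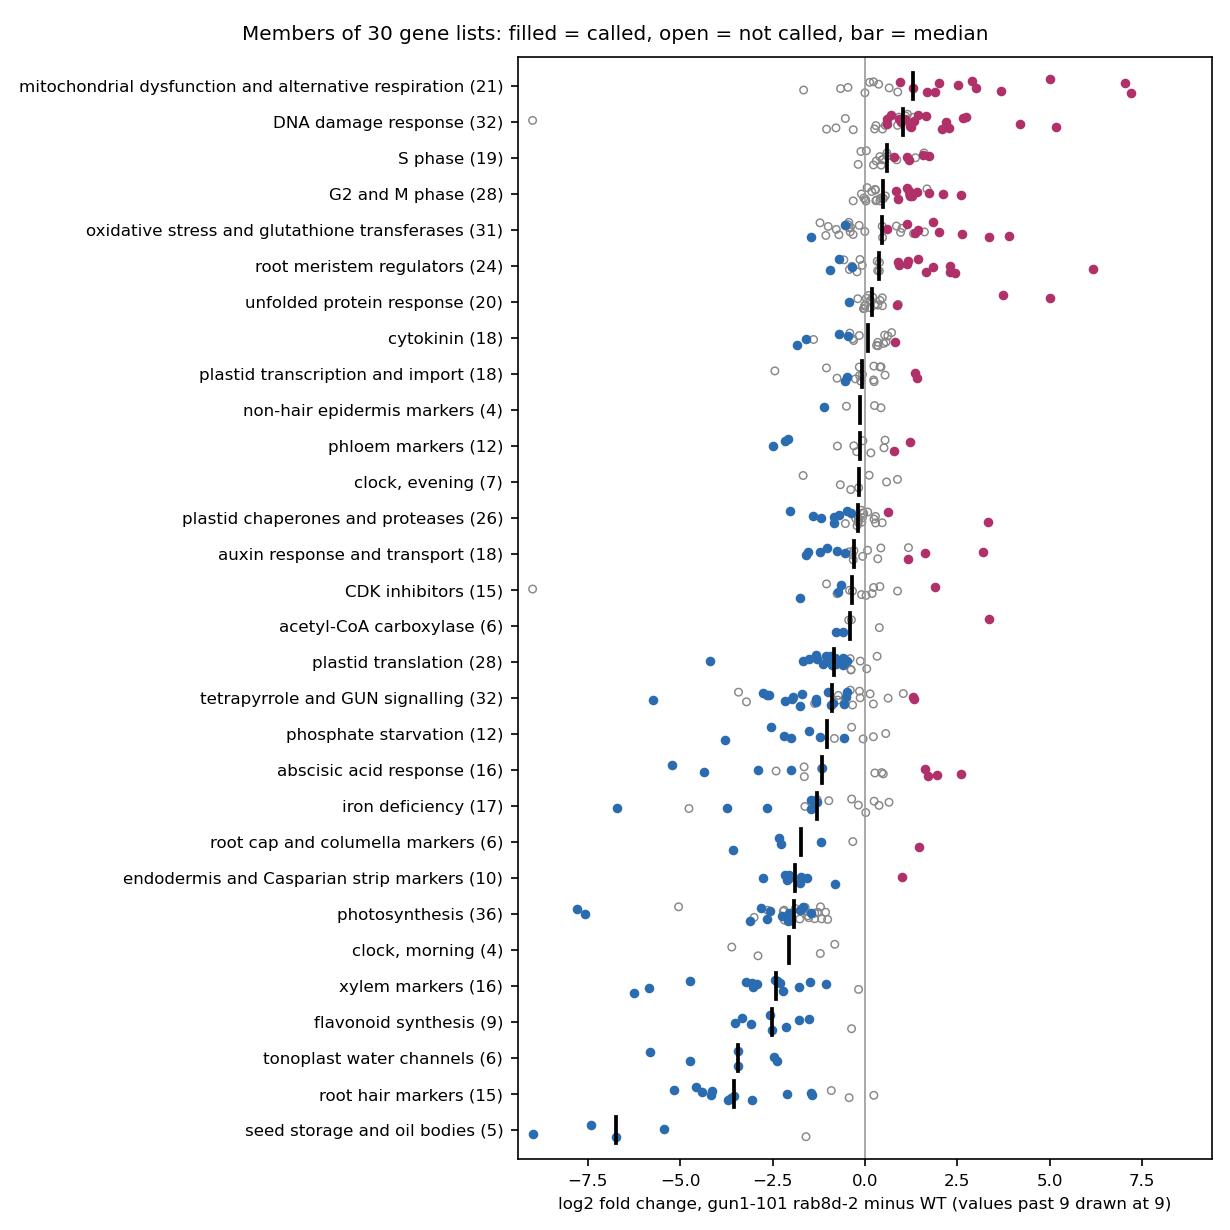
Log2 fold change of gun1-101 rab8d-2 minus WT for the tested members of 30 gene lists, with the number tested in brackets, filled points for called members, open points for the rest and a bar at the list median. The water channel, root hair and flavonoid lists lie lowest after the seed list, with medians of -3.43, -3.55 and -2.51, and the mitochondrial list highest with 1.31.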

How the data were processed

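RNA of seedling root tips was measured in 18 libraries, 3 per genotype. Expected counts per gene were made by the authors with RSEM 1.3.1 on the TAIR10 build, per the submitters' processing notes, and were deposited without normalization beside the authors' TPM values. Of the counts, 19.6% lay more than 1e-06 from the nearest whole number, and every count was rounded. TPM summed to 67.1% to 79.5% of 1000000 per library. The table holds 25177 protein-coding genes and none of the plastid genome. The 12 columns of genotype means were not used. The tests were first checked on simulated counts.

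In R 4.3.3, edgeR 4.0.16 tested 21004 genes (filterByExpr removed 4173) with TMM factors of 0.706 to 1.17, a common dispersion of 0.104 and a robust quasi-likelihood fit with 1 term per genotype over all 18 libraries. The SE is the absolute log2 fold change over the square root of the F statistic. Limma 3.58.1 and DESeq2 1.42.0 gave alternatives. A count of 0 in 3 libraries allows up to 3 counts, or 0.0486 CPM in WT and 0.0387 CPM in the double mutant, and intervals and floors cover counting error only (95% exact binomial).

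The members and 30 lists (527 members, 511 tested) were chosen with earlier results of these data known. Named genes were the mutated genes, the 8 highest and 8 lowest called genes of at least 5 CPM with a symbol and no overlap, up to 6 each returned, partly returned or beyond rab8d-2, up to 3 per list with the smallest p, 4 clock genes and acetyl-CoA carboxylase. Other list members, and those with promoters shown, were named after their values were seen. Promoter windows and exon lengths came from RefSeq's TAIR10.1, matched by locus tag for all 25177 genes.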

Additional observations from a re-analysis of the deposited data

How the results depend on the processing

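The counts of genes called in gun1-101 rab8d-2 against WT, not returned, returned and beyond rab8d-2 were 7670, 2117, 23 and 725. Leaving out 1 library at a time gave 4193 to 9573, 409 to 3184, 5 to 30 and 203 to 960. WT replicates 2 and 3, double-mutant replicates 1, 2 and 3 and each rab8d-2 replicate moved at least 1 of the counts by over 1.5 times. Merging double-mutant replicates 1 and 2 gave 4754, 1438, 5 and 205. Leaving out replicate 3 of WT and nac103-11 rab8d-2 together gave 11609, 6918, 166 and 2645. The genes not returned and returned are parts of those called in rab8d-2 against WT, which numbered 2585 in the main fit. That number was 450 where 409 were not returned, 3619 where 3184 were and 7932 where 6918 were. The DESeq2 Wald test gave 9206, 3291, 100 and 1574, and the fit of 9 libraries of 3 genotypes 6645, 1180, 14 and 356. With the replicate number as a block, the counts were 6520, 1539, 15 and 460. Libraries that share a number were not taken as paired: their deviations from the genotype means correlated by -0.277 to 0.518 over the pairs of WT, rab8d-2 and the double mutant, and negatively in every pair of rab8d-2 and the double mutant. On log2(TPM + 1), 68 genes were returned, 10 with an interval within 1.5-fold and 35 with the exon length trend removed. At least 2-fold changes were called for 4878 genes. Merging replicates 1 and 2 and leaving out replicate 3 of WT and rab8d-2, chosen after seeing the data like the removal of the length trend, gave 7125, 910, 6 and 109. DESeq2 size factors and other count filters kept all 4 counts within 1.5 times, and the fit of the 6 libraries alone called 6142 genes. The cause of these shifts was not tested. Of 106 named genes called against WT, 88 were called in every refit without 1 library and 82 in every setting with a value, and none reversed. Calls of single genes between gun1-101 rab8d-2 and rab8d-2 were not followed over the settings. At 22625981 to 23090995 counts per library, genes near 1 CPM rest on few reads.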
